A study of Mus musculus with 11 samples.

Results

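The mast cell proteases and markers described here are 10 genes of the 27687 in a table of RNA-seq counts from mouse gliomas: Mcpt1, Mcpt2, Mcpt4, Mcpt8, Cma1, Cpa3, Tpsb2, Ms4a2, Hdc and Gata2. They were matched by gene symbol, and the set was chosen from measured values of this same comparison, in which Mcpt1 and Mcpt2 had been seen low in the knockdown tumours. Their knockdown values are therefore given as a description, without a test. The question behind the set is whether mast cell transcripts as a group, or single proteases, differ between the tumours.

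The study compared 9 tumours with prolonged knockdown of Ezh2, the histone methyltransferase of Polycomb repressive complex PRC2, with 2 control tumours. All 11 tumours grew in the brain of NOD-SCID mice, which lack mature B and T cells but keep mast cells and other myeloid cells. The injected glioma initiating cells came from neural stem cells of the subventricular zone of mice 7 days old, conditional for p53, Ink4a/Arf, Krasv12 and LucR, and had been infected 3 times with a lentivirus in which the CMV promoter drives Cre. Controls and knockdown tumours alike carried the doxycycline-inducible hairpin FH1-tUTG-shEzh2 and had been sorted for GFP. The labels of all 11 tumours also give the growth factors EGF and bFGF at 20 ng/ml each. The series text speaks of hosts with or without doxycycline, while the label of every tumour gives 2 mg/ml doxycycline and 1% sucrose in the drinking water. Drug and hairpin effects on the host cannot be told apart. The labels do not say how many cultures or hosts the tumours came from, so p-values measure the spread between these tumours only.

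Mast cells are tissue-resident granulated cells of bone marrow origin that depend on the receptor Kit and carry the high-affinity IgE receptor. Their granules hold heparin-bound serine proteases, the chymases and tryptases, together with carboxypeptidase A3 and histamine. In mice, Mcpt1 and Mcpt2 mark mucosal mast cells, whereas Mcpt4, Cma1 (mouse mast cell protease 5), Tpsb2 (protease 6) and Cpa3 mark connective tissue mast cells, the type that normally sits in the meninges and along brain vessels. Mcpt8 is mainly a basophil protease. GATA2 is a transcription factor that mast cells and basophils need, and it binds DNA at the core GATA.

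The promoters of 3 genes are shown because their transcripts were low together and their start regions hold the letters that a GATA factor reads. They are the 250 bases before the RefSeq start in build GRCm38.p6, written 5′ to 3′ on the strand of the gene: chr14:56017714-56017963 (plus) for Mcpt1, chr14:56062311-56062560 (minus) for Mcpt4 and chr3:20242182-20242431 (minus) for Cpa3. Capitals mark TGATAA or AGATAA, which contain the core, and the promoter element TATAAA, each searched on both strands, and no marked match overlaps another.
Mcpt1 promoter: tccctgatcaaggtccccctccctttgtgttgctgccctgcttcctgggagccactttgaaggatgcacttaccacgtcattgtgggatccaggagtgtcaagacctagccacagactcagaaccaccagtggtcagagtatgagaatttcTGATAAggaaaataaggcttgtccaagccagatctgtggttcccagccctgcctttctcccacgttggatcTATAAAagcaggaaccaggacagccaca
Mcpt4 promoter: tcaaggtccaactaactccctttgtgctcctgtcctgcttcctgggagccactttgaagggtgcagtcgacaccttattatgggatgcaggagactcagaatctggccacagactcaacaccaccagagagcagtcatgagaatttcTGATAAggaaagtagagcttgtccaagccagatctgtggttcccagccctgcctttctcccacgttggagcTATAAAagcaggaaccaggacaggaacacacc
Cpa3 promoter: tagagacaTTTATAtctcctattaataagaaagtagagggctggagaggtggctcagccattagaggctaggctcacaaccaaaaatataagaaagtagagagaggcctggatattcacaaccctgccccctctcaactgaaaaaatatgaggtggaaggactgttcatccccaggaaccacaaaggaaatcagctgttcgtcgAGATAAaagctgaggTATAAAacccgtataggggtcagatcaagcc

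In Mcpt1, TGATAA began 99 bases before the start and TATAAA 28 bases before it. In Mcpt4 the same letters stood 103 and 32 bases before the start, and the windows of Mcpt1 and Mcpt4 were identical at 209 of 242 aligned bases (86.4%). Cpa3 held AGATAA at 46 and TATAAA at 31 bases before its start, and TATAAA once more on the opposite strand at 242. The other promoters differed more: the chymase Cma1 matched Mcpt1 at 67.5% of aligned bases and Mcpt8 at 65.9%. Of the 10 genes, 8 had a promoter in the RefSeq table (not Mcpt2 and Tpsb2), and 4 of these 8 held AGATAA or TGATAA: Mcpt1, Mcpt4, Cpa3 and Ms4a2, the last with 3 copies of AGATAA. Cma1, Mcpt8, Hdc and Gata2 had neither string in the window. Other strings with the core GATA were not counted, and some of these windows hold them. They include AGATAG in Cma1 and GATA in Mcpt8, both on the opposite strand, and TGATAG in Hdc. Among all 32851 RefSeq windows of this length in mouse, 16.6% held AGATAA or TGATAA and 12.4% held TATAAA. A match of letters is not a binding site.

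Mcpt1 and Mcpt2 are near neighbours on chromosome 14 and close in sequence, so their first 150 coding bases are shown to make visible how reads of the pair can be told apart. The sequences come from GENCODE M21, and capitals mark the 14 bases at which they differ.
Mcpt1 coding bases 1 to 150: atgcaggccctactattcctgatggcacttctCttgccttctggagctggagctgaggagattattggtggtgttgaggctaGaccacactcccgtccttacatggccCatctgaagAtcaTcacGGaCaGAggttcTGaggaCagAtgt
Mcpt2 coding bases 1 to 150: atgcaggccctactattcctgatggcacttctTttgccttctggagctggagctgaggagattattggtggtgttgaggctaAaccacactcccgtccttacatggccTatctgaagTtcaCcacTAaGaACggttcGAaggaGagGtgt

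Over the whole coding sequence Mcpt1 and Mcpt2 were identical at 605 of 732 aligned bases (82.7%), and Mcpt1 and Mcpt4 at 87.0%. No stretch of 50 bases was shared between the transcripts of any of these 3 genes. Shorter shared runs occur, and the longest lower-case run of the printed bases is only just under 50. How completely reads of Mcpt1 and Mcpt2 were separated was not tested. None of the 10 genes overlapped another gene model in the table.

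The libraries held 11209233 to 18638382 counts, and 3 counts, taken as the detection floor, corresponded to 0.162 to 0.273 CPM (counts relative to the library size, scaled with TMM factors). Of 16241 genes tested with edgeR, 23.3% were called different at an adjusted p under 0.05, 13% lower and 10.3% higher in the knockdown tumours, and the median log2 fold change was 0.07. Reads of Xist, the RNA of the inactive X chromosome, were present in knockdown tumours 2 to 6 and in both controls (600 to 2099 counts) and nearly absent from knockdown tumours 1, 7, 8 and 9 (at most 14 counts). Among markers of neural progenitors and glia, Nes was measured at 278 to 484 CPM in the knockdown tumours and at 2027 and 893 CPM in the controls. Sox2, Vim and Olig2 were likewise below both controls in all 9 knockdown tumours, Olig2 at 0.727 to 10.6 CPM against 17.3 and 45.2 CPM. These 4 were called lower (Sox2 not without control 1, Olig2 not without control 2, Vim not without either). Gfap was above both controls in 8 of 9 knockdown tumours (64.9 to 425 CPM against 107.6 and 15.0 CPM). It was not called by edgeR with all libraries, and was called higher without control 1, by DESeq2 and by limma-voom.

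Ezh2, the target of the hairpin, was below both controls in each of the 9 knockdown tumours. It was measured at a lowest of 7.27, a median of 14.6 and a highest of 30.4 CPM in the 9 knockdown tumours, and at 45.3 and 52.7 CPM in controls 1 and 2. Its fitted difference was -1.59 ± 0.44 on the log2 scale (SE; edgeR adjusted p = 0.0225), and an exact permutation test (two-sided, all 55 choices of 2 tumours) gave p = 0.0182, the smallest it allows. With 1 control left out the adjusted p was 0.11 (without control 1) and 0.138 (without control 2). Knockdown tumours 3 and 9 kept the most Ezh2 transcript and tumour 8 the least.

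Transcripts of the 7 proteases were well detected in both controls and scarce in the knockdown tumours, and Ms4a2, low in all tumours, had the same direction. The 2 others, the histamine-forming enzyme gene Hdc and the transcription factor gene Gata2, did not share this pattern. In these 8 genes (of the 10) every knockdown tumour lay below both controls, a pattern that 13.8% of all tested genes showed (13.3% showed the reverse). The same 8 were among the edgeR calls for lower levels, against 13% of all tested genes. Without control 2 this count was 3 (Mcpt1, Mcpt2 and Mcpt8), without control 1 it was 4 (Mcpt1, Mcpt2, Cma1 and Cpa3), and DESeq2 called 6, leaving out Mcpt8 and Ms4a2. Since the set was chosen on this contrast, nothing is read from these counts. In bulk tumour RNA, fewer mast cells and less RNA per mast cell cannot be told apart.

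**Figure D1:**
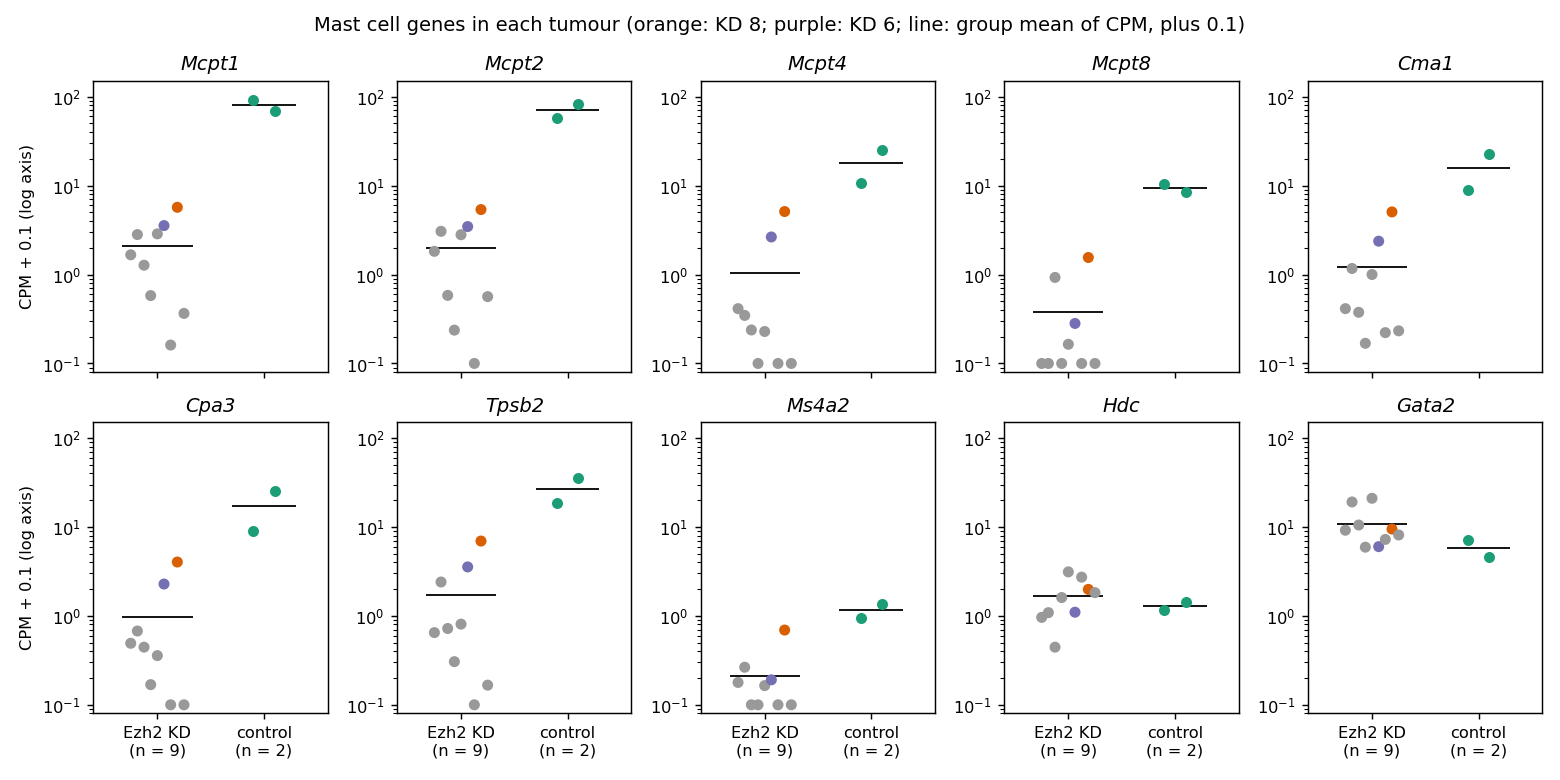
CPM plus 0.1 on a log axis for each of the 10 genes in the 9 knockdown and 2 control tumours; each point is 1 tumour and the line is the group mean. The controls lie above all knockdown tumours in 8 panels, knockdown tumour 8 (orange) is the highest knockdown tumour in those 8, and Hdc and Gata2 overlap.

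The mucosal chymase Mcpt1 (chr14:56636801-56639228, mm9) was measured at 91.9 and 69.7 CPM in controls 1 and 2. In the knockdown tumours it had a lowest of 0.0611, a median of 1.57 and a highest of 5.60 CPM. The highest knockdown tumour, number 8, reached 8.04% of the lower control. The fitted log2 fold change was -5.32 ± 0.75 (SE), and all 9 knockdown libraries together held 267 Mcpt1 counts against 2307 in the 2 controls.

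Mcpt2 (chr14:56660960-56663471), the second mucosal chymase, followed the same levels. It was measured at 57.7 and 82.0 CPM in the controls and at a lowest of 0, a median of 1.72 and a highest of 5.28 CPM in the knockdown tumours, with a log2 fold change of -5.19 ± 0.85 (SE). The highest knockdown tumour stood at 9.15% of the lower control. Which control was higher differed between the pair: control 1 for Mcpt1 and control 2 for Mcpt2.

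The proteases of connective tissue mast cells were also lowest in the knockdown tumours, but there tumour 8 came nearer to the controls. Mcpt4 (chr14:56678581-56681147), a chymase that cleaves fibronectin and angiotensin I, was measured at 10.7 and 25.1 CPM in the controls and at 0, 0.138 and 5.01 CPM (lowest, median and highest) in the knockdown tumours. Tumour 8 thus stood at 46.9% of control 1, while the median knockdown tumour was under the floor of 3 counts. The log2 fold change of Mcpt4 was -4.23 ± 1.24 (SE).

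Cma1 (chr14:56560290-56563498), a chymase-family protease with elastase activity in mice, had 8.77 and 22.4 CPM in the controls and 0.0685, 0.313 and 4.96 CPM in the knockdown tumours. Tumour 8 reached 56.5% of the lower control, and the log2 fold change was -3.77 ± 0.97 (SE). Cpa3 (chr3:20115516-20142080), the carboxypeptidase that trims the products of the chymases and degrades toxins, had 8.85 and 25.5 CPM in the controls and 0, 0.345 and 3.93 CPM in the knockdown tumours. Its highest knockdown value was again that of tumour 8, 44.5% of the lower control, and its log2 fold change was -4.29 ± 1.07 (SE). Control 2 was the higher control for each of Mcpt4, Cma1 and Cpa3.

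The tryptase gene Tpsb2 (chr17:25503486-25505804) lies outside the chymase locus, and tumours 8 and 6 were again its highest knockdown tumours. It was measured at 18.4 and 35.2 CPM in the controls and at 0, 0.621 and 6.84 CPM in the knockdown tumours, with a log2 fold change of -4.02 ± 1.04 (SE). Tumour 8 stood at 37.2% of control 1 and tumour 6 followed with 3.45 CPM.

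Mcpt8 (chr14:56701003-56704053), the basophil protease, was the gene of the set with the most knockdown libraries at 0. It had 10.2 and 8.33 CPM in the controls, no count in 5 of 9 knockdown libraries, and a highest knockdown value of 1.45 CPM in tumour 8. Unlike the other proteases, its next highest knockdown tumour was number 3 with 0.828 CPM, and not number 6 with 0.182 CPM. Its log2 fold change was -4.92 ± 1.06 (SE).

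Ms4a2 (chr19:11690013-11698209), the beta subunit of the IgE receptor, was low throughout. It was measured at 0.846 and 1.25 CPM in the controls and at 0, 0.0644 and 0.593 CPM in the knockdown tumours. The knockdown libraries held 16 counts in all, 68.8% of them in tumour 8, which stood at 70.0% of the lower control. The log2 fold change of -3.07 ± 0.92 (SE) rests on these 16 counts and on 31 in the controls.

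Hdc (chr2:126419403-126445035), the enzyme that makes histamine, overlapped between the groups. It had 1.08 and 1.32 CPM in the controls and 0.345, 1.51 and 3.02 CPM in the knockdown tumours, of which 4 lay below both controls and 5 above. The log2 fold change was 0.38 ± 0.62 (SE). Tumour 8, the highest knockdown tumour for the proteases, had 1.89 CPM of Hdc, whereas tumour 7, with 3 protease counts in all, had 2.63 CPM.

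Gata2 (chr6:88143885-88157024) did not follow the proteases. It was measured at 7.00 and 4.51 CPM in the controls and at 5.82, 9.09 and 20.9 CPM in the knockdown tumours, and 7 of 9 knockdown tumours lay above both controls. The log2 fold change was 0.89 ± 0.51 (SE), 1.23 without control 1 and 0.60 without control 2. Gata2 is also transcribed in endothelium and in some neurons. Of 8 endothelial markers tested, 3 were called higher (Emcn, Tie1 and Cldn5) and none lower, and their summed level was 120 to 334 CPM in the knockdown tumours against 115 and 123 CPM in the controls. Those endothelial calls were lost with either control left out, and the part of endothelium in the Gata2 level was not tested. Of 8 genes of histaminergic and GATA-dependent neurons, 6 were tested with edgeR and none was called, with none at an unadjusted p under 0.05 and none by DESeq2 or limma-voom.

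Leaving out knockdown tumour 8 moved the 8 low genes further from the controls: the log2 fold change of Mcpt1 became -5.72, of Mcpt4 -5.51, of Mcpt8 -6.02 and of Ms4a2 -4.29. Leaving out control 2 brought the connective tissue genes nearer, to -2.95 for Cma1 and -3.34 for Cpa3, and left Mcpt1 at -5.51. Over the 7 libraries with Xist reads, which do not include tumour 8, the values were -5.29 for Mcpt1, -5.23 for Mcpt2, -4.98 for Mcpt4 and -4.26 for Tpsb2.

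The make-up of the protease transcripts was expressed as shares within each library, so that tumours with few and many protease counts could be set side by side, and it varied among tumours of either group. Of the summed counts of the 7 proteases, Mcpt1 and Mcpt2 made up 72.4% in control 1 (95% exact Clopper-Pearson interval 70.7 to 74.1%, 2684 counts) and 56.5% in control 2 (55.05 to 58.0%, 4283 counts). These shares depend on transcript length and are compared between libraries only, and their intervals cover counting error alone. In knockdown tumour 8 the share was 32.9% (29.2 to 36.8%, 614 counts) and in tumour 6 it was 39.1% (32.1 to 46.3%, 192 counts), both below either control. In tumour 5 it was 72.6% (63.6 to 80.5%, 117 counts), near control 1, and in tumour 2 it was 57.5% (48.1 to 66.5%, 120 counts), near control 2.

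Across the 9 knockdown tumours the mucosal share lay above both controls in 2 and below both in 4, so the groups overlapped in make-up while they did not overlap in amount. The counting interval lay clear of the shares of both controls in tumours 6 and 8 alone. The knockdown tumours held 1192 protease counts in all, of which tumour 8 supplied 51.5%. The summed protease level was 206 and 268 CPM in the controls, 33.1 CPM in tumour 8, 17.4 CPM in tumour 6 and 0.183 CPM in tumour 7. Within the mucosal pair, Mcpt1 took 61.4% of the counts in control 1, 46.0% in control 2 and 51.5% in tumour 8.

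**Figure D2:**
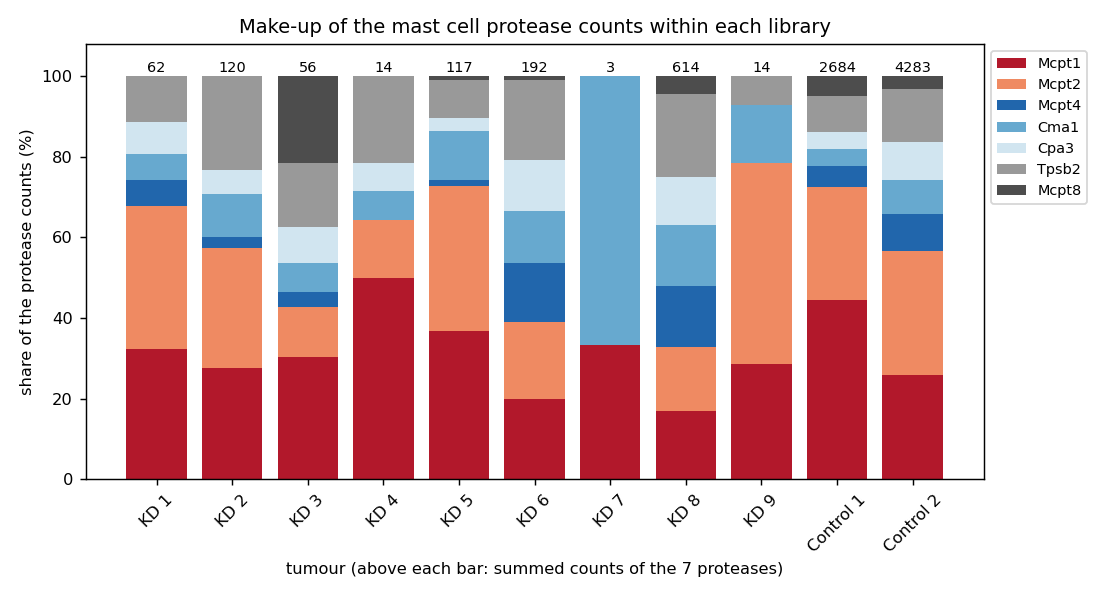
Share in percent of each of the 7 proteases among their summed counts in each library, with the summed count above each bar. Mcpt1 and Mcpt2 (red and orange) take 72.4% and 56.5% in the controls and 32.9% in knockdown tumour 8; the bars of tumours 4, 7 and 9 rest on 14 counts or fewer.

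Other genes of the mast cell gave a mixed picture: the chymase gene Cma2 and the IgE receptor gene Fcer1a fell (log2 fold changes of -6.15 and -5.40), while Kit and Mitf were not called. Of 34 listed genes outside the 10, 27 passed the filter on low counts, 10 of them fell in the knockdown tumours (edgeR, 13% of all tested genes), 17 were not called and none rose. At an unadjusted p under 0.05, 13 were lower and 2 higher. DESeq2 called 12 of the 34 lower and limma-voom 11, and neither called any higher. The median log2 fold change of the 27 was -0.67, beside 0.07 over all genes tested. Without control 2 only Cma2 and Fcer1a were called, and without control 1 there were 9 calls, of which 6 were among the 10.

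Among granule and surface genes 6 of 12 tested fell. Cma2, a chymase gene beside Cma1, fell with a log2 fold change of -6.15 ± 0.73 (SE; adjusted p = 0.0003), from 4.31 and 2.26 CPM in the controls to 5 counts in all knockdown libraries. Fcer1a, the IgE-binding chain of the receptor that Ms4a2 belongs to, fell by 5.40 ± 0.85 on the log2 scale (adjusted p = 0.0013). It had 1.77 and 3.32 CPM in the controls and no count in 7 knockdown libraries, and its 7 knockdown counts lay in tumours 8 and 6. Tpsab1, the tryptase neighbour of Tpsb2, fell by 2.23 ± 0.44 (adjusted p = 0.0048) and had no knockdown library at 0, with 1.03 to 4.27 CPM against 8.23 and 14.6 CPM. Il1rl1, the receptor for interleukin 33, fell by 2.12 ± 0.57 (adjusted p = 0.021).

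Kit, Fcer1g and Mitf, which other cells of a brain tumour also express, were not called. Kit, the receptor for stem cell factor, which neural and glial progenitors also express, was measured at 10.6 to 73.1 CPM in the knockdown tumours and at 13.5 and 23.2 CPM in the controls (log2 fold change 0.28 ± 0.67, SE; adjusted p = 0.79). Fcer1g, the signalling chain that the IgE receptor shares with myeloid Fc receptors, had a log2 fold change of -0.39 ± 0.37 (adjusted p = 0.47), beside -5.40 for Fcer1a and -3.07 for Ms4a2. The differences between these 3 chains were not tested. Mitf, a transcription factor of mast cells and pigment cells, had 0.25 ± 0.40 (adjusted p = 0.68). The granule membrane gene Cd63 and the heparin sulfotransferase gene Ndst2 were not called either.

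Among genes of mediator synthesis, signalling and transcription, 4 of 15 tested fell. They were the kinase gene Syk (log2 fold change -1.50 ± 0.27, SE; adjusted p = 0.0029), the adaptor gene Lat2 (-1.08 ± 0.20, adjusted p = 0.0035), Btk and Lat, all of which act downstream of Fc or antigen receptors in several kinds of leukocyte. The Lat call (edgeR adjusted p = 0.044) was lost with any of knockdown tumours 1, 3, 4, 6 and 8 left out. Tph1, which makes the serotonin stored in mouse mast cell granules, had 3.08 and 2.63 CPM in the controls and 0, 0.183 and 1.45 CPM in the knockdown tumours, and its adjusted p was 0.055. The enzymes of prostaglandin and leukotriene synthesis (Hpgds, Ltc4s, Alox5, Alox5ap, Ptgs1) were not called. Mcpt9, which lies between Mcpt1 and Mcpt2, did not pass the filter: it had 9 and 15 counts in the controls and 6 in all knockdown libraries. Nor did the receptor genes Mrgprb1 (4 and 22 counts in the controls, 2 in all knockdown libraries) and Mrgprb2 (3 and 15 counts, and 2). DESeq2 called Mcpt9 and Mrgprb1 lower. Tpsg1, Gata1, Rgs13 and Gfi1b did not pass either, and Gfi1b had 10 counts in knockdown tumour 3 and 1 in the controls.

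**Figure D3:**
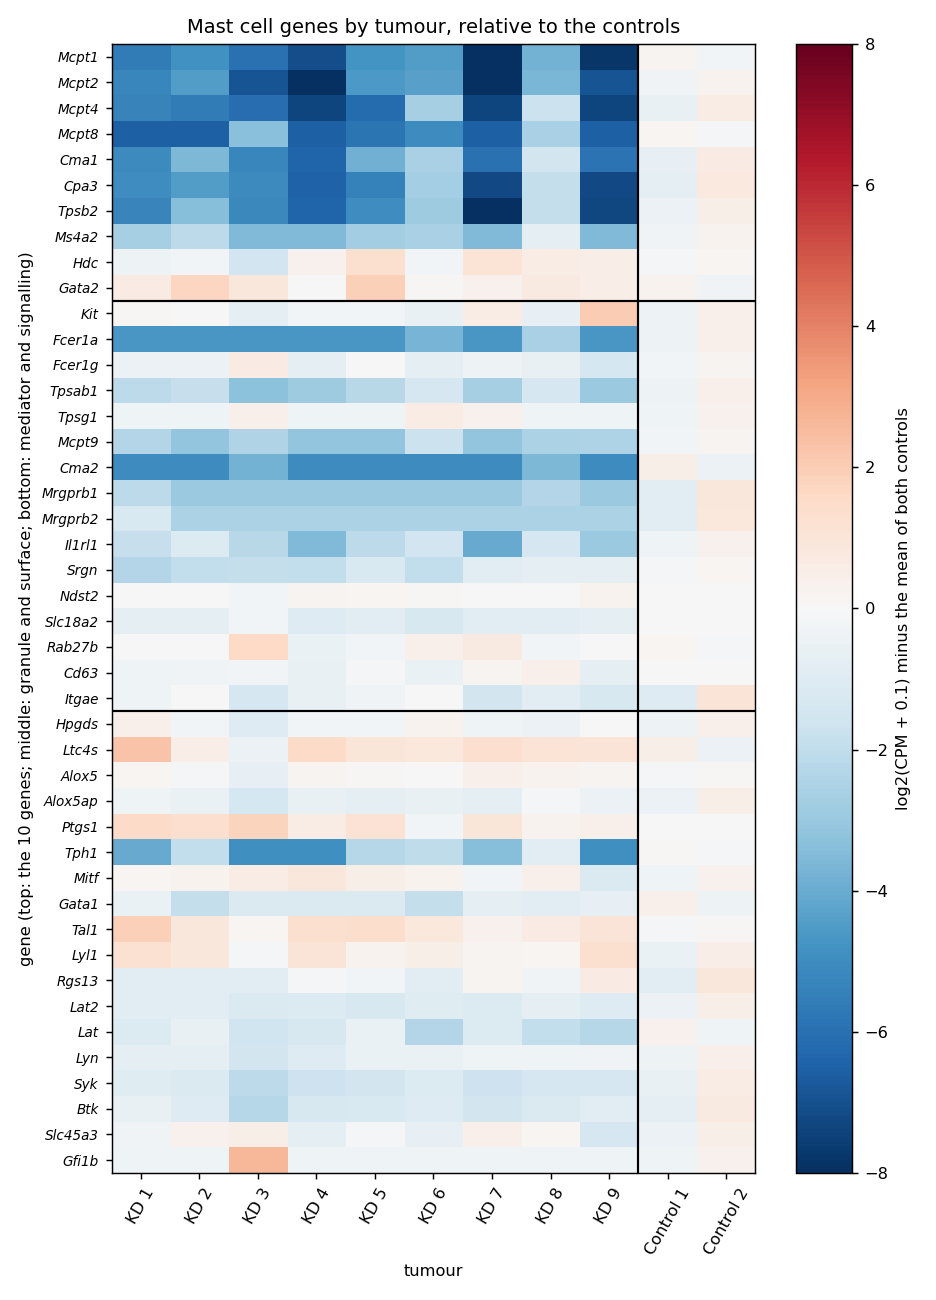
Each cell is log2(CPM + 0.1) of 1 gene in 1 tumour minus the mean of the 2 controls, with blue below and red above the controls; the 10 genes are on top, granule and surface genes in the middle, mediator and signalling genes at the bottom. Blue covers the first 8 rows and Fcer1a, Cma2 and Tph1, while Hdc, Gata2, Kit and Mitf stay near or above 0 in most tumours.

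**Figure D4:**
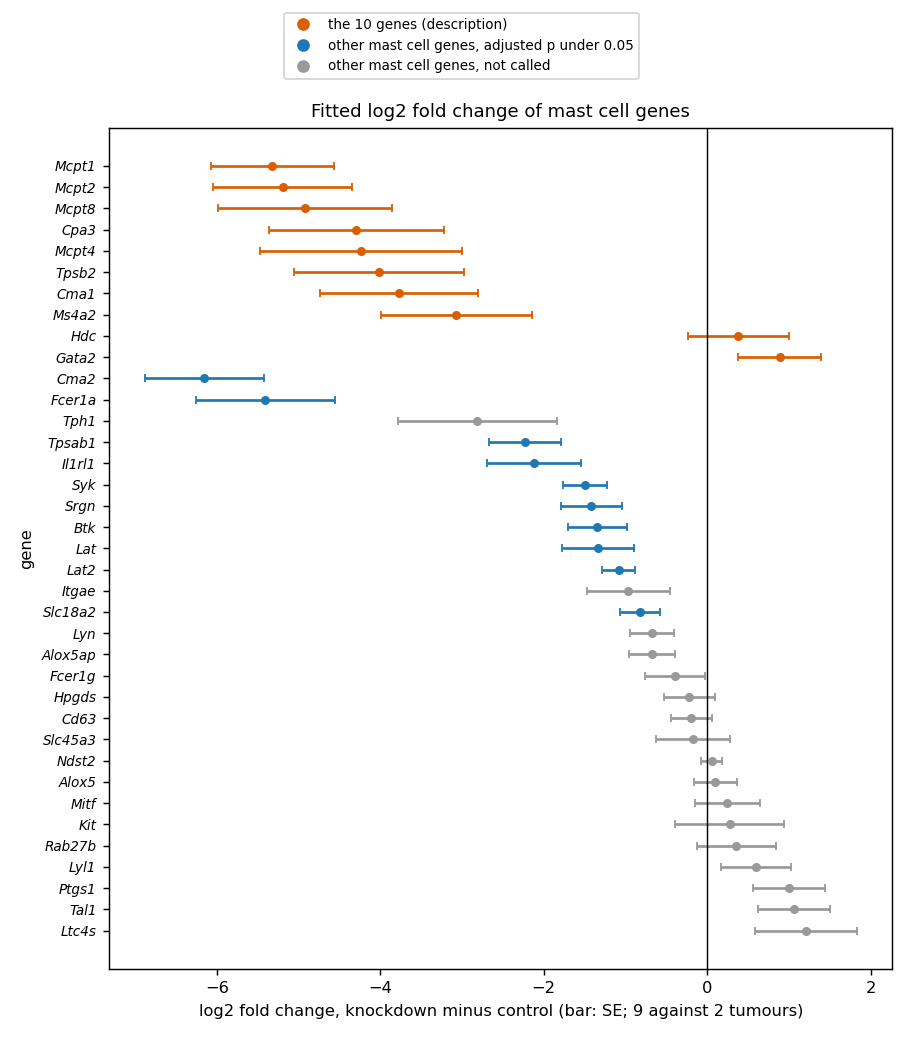
Fitted log2 fold change, knockdown minus control, with its SE, for the 10 genes (orange, a description) and the 27 other tested mast cell genes (blue where the adjusted p was under 0.05, grey where not). The estimates run from -6.15 for Cma2 to 1.21 for Ltc4s.

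Signals that sustain mast cells or induce the mucosal chymases were mostly not called. Of 25 listed genes 19 were tested, 3 fell and none rose. At an unadjusted p under 0.05, 4 were lower and 2 higher. DESeq2 called 4 lower (the same 3 and Tgfb3) and 2 higher (Il33 and Tslp), and limma-voom called 3 lower and none higher. Kitl, the stem cell factor itself, was measured at 47.1 to 135 CPM in the knockdown tumours and at 90.7 and 161 CPM in the controls (log2 fold change -0.54 ± 0.38, SE; adjusted p = 0.32). Interleukins 3, 9 and 4 were at 3 counts or fewer in every library, as was Itgb6, the integrin chain that activates TGF-beta in mucosal epithelium.

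Tgfb1, whose product TGF-beta induces Mcpt1 in cultured mast cells, was measured at 104 to 197 CPM in the knockdown tumours and at 309 and 151 CPM in the controls (log2 fold change -0.54 ± 0.25, SE; adjusted p = 0.14). That value was 0.07 without control 1 and -0.97 without control 2, where Tgfb1 was called lower and Csf2rb2 lost its call. The genes that fell were Itgav, the alpha chain of the integrins that release active TGF-beta (-1.43 ± 0.19, adjusted p = 0.0006), and Csf2rb and Csf2rb2, the shared chains of the receptors for interleukin 3, interleukin 5 and GM-CSF (-1.58 ± 0.23 with adjusted p = 0.0009 for Csf2rb). Il33, an alarmin that acts through Il1rl1, was not called (1.79 ± 0.75 on the log2 scale, adjusted p = 0.10). Tgfb3 was below both controls in all 9 knockdown tumours, as were 13.8% of all tested genes (log2 fold change -0.51 ± 0.19, SE, edgeR adjusted p = 0.067). Tgfb2 was below both in 8 of 9 (-0.66 ± 0.41, edgeR adjusted p = 0.26), and edgeR called neither. The receptors Tgfbr1 and Tgfbr2 and the genes Smad2, Smad3 and Smad4 were not called.

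Among 11 tested inhibitors and substrates of mast cell proteases, 2 fell and none rose, with 2 higher at an unadjusted p under 0.05, 3 higher by DESeq2 (Serpina3n, Slpi and Agt, the last also without tumour 3) and none by limma-voom. Mmp9, whose proenzyme mouse chymase activates, fell by 4.16 ± 0.68 on the log2 scale (adjusted p = 0.0017), from 283 and 835 CPM in the controls to a median of 21.5 CPM. Its highest knockdown value, 101 CPM, was in tumour 8. The serpin gene Serpina3g fell by 2.27 ± 0.50 (adjusted p = 0.008), a call that was lost without control 2. The fibronectin gene Fn1 was not called by edgeR, and it was called lower by DESeq2 and with tumour 8 left out.

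The chymase locus on chromosome 14 holds 5 of the 10 genes in a row that runs Cma1, Cma2, Mcpt1, Mcpt9, Mcpt2, Mcpt4 and Mcpt8 and continues into Ctsg (cathepsin G) and 7 granzyme genes, proteases of cytotoxic lymphocytes. Up to Mcpt8, all 9 knockdown tumours lay below both controls for each of these protein-coding genes, a pattern that 13.8% of all tested genes showed. The 5 genes of the set among them were chosen on this contrast. From Ctsg on the tumours overlapped, apart from Gzmn with 4 counts in all knockdown libraries. For Gzmb, Gzmc, Gzmd and Gzme the overlap was that of tumour 8 alone, and 8 of 9 knockdown tumours lay below both controls. Of 7 tested genes of that side, none was called by edgeR and none had an unadjusted p under 0.05, while DESeq2 called 4 of the 8 lower and limma-voom 3.

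Knockdown tumour 8 was the highest knockdown tumour for all 8 of these genes: Gzmf was measured at 107 CPM there, at most at 11.6 CPM in the other knockdown tumours and at 0.154 and 1.38 CPM in the controls. With tumour 8 left out, Gzmb, Gzmd and Gzme were called lower. Gzme had 48.5 CPM in tumour 8, a median of 2.25 CPM in the knockdown tumours and 56.8 and 43.5 CPM in the controls (log2 fold change -2.77 ± 1.30, SE; adjusted p = 0.14). Tumour 8 also had the highest level of Prf1, the perforin gene, at 20.2 CPM against 0.462 and 0.814 CPM in the controls. The natural killer receptor gene Ncr1 was highest there too, at 1.401 CPM. Klrb1c, another such receptor gene, was not: it had 0.269 CPM in tumour 8 against 3.23 and 1.82 CPM in the controls. Of the T cell genes, Cd3e stayed at 3 counts or fewer in every library, while Cd3g had 17 counts in tumour 8 and at most 3 elsewhere. The part of natural killer and T cells in the granzyme levels was not tested.

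**Figure D5:**
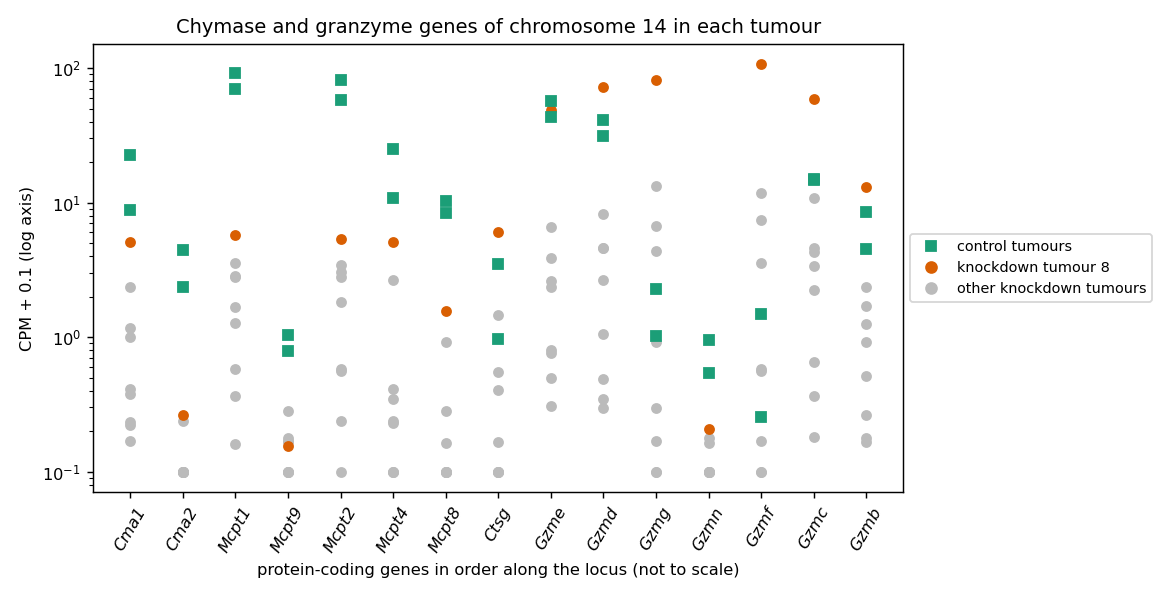
CPM plus 0.1 on a log axis of the protein-coding genes of the chymase locus in their order along chromosome 14, not to scale; green squares are the 2 controls, the orange point is knockdown tumour 8 and grey points are the other 8 knockdown tumours. From Cma1 to Mcpt8 the squares lie above every point, and from Ctsg to Gzmb tumour 8 lies among or above them in all but Gzmn.

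Markers of other cells that carry some of these genes were set beside them. Of 9 basophil genes 7 were tested: Cd69, Ccl3 and Ccl4 fell and Itga2 rose. Without control 2 none was lower, and the Itga2 call was lost with either control or any of tumours 1, 2, 3, 5 and 8 left out and by limma-voom. The defining basophil protease gene Prss34 had 1 count in all 11 libraries, and the summed basophil list stood at 51.0 to 119 CPM in the knockdown tumours against 44.3 and 71.7 CPM. Most of that sum was Cebpa and Itga2, which other cells also express, and the 7 other genes summed to 1.97 to 6.99 CPM against 8.46 and 12.9 CPM. That lower sum depends on which genes are left out, since Cd69, Ccl3 and Ccl4 are not particular to basophils either. Cd200r3 had 4 and 6 counts in the controls and 17 in knockdown tumour 4. A difference in basophils was not tested. The eosinophil genes Prg2, Epx, Ear6, Ear10 and Il5ra had 3 counts or fewer in every library, but others of that list were detected. Ear2 had 2 and 30 counts in the controls and up to 19 in the knockdown tumours, and edgeR did not call it. Ccr3 had 5 and 41 counts in the controls and at most 10 in the knockdown tumours. It did not pass the edgeR filter, and DESeq2 called it lower. Mcpt8 was measured at 133 counts in each control, where Prss34, the other basophil protease gene, had no count.

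Neutrophil and macrophage genes were also lower in the knockdown tumours. Of 12 tested neutrophil genes 9 fell and none rose, and their summed level was 9.01 to 23.8 CPM (highest in tumour 8) against 234 and 73.8 CPM. Ngp, a neutrophil granule gene, fell by 8.49 ± 0.64 on the log2 scale (adjusted p = 2.67e-05). Control 1 had the higher neutrophil sum, whereas control 2 had the higher Mcpt4, Cma1, Cpa3 and Tpsb2.

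Of 18 tested macrophage and microglia genes 11 fell and none rose, with a summed level of 533 to 1099 CPM against 1266 and 3047 CPM, and 3 fell without control 2 (Msr1, Itgam and Laptm5). The pan-leukocyte gene Ptprc fell by 1.65 ± 0.30 (adjusted p = 0.0029, a call lost without control 2), beside fitted log2 fold changes of -5.32 to -3.77 for the 7 proteases. Its knockdown range was 12.3 to 37.0 CPM, against 44.5 and 94.2 CPM. The part of a general difference in leukocytes in the mast cell values was not tested. Of 9 genes of host brain and meninges, Mbp, of myelin, rose by 3.36 ± 0.53 (adjusted p = 0.0015), Snap25 and Camk2a rose (calls lost with either control left out and by limma-voom), and the collagen gene Col1a2 fell by 4.18 ± 0.60 (adjusted p = 0.0008). Of the other fibroblast genes, Dcn and Lum did not follow Col1a2 and were above both controls in 7 of 9 knockdown tumours (log2 fold changes of 2.33 and 1.28). Col1a1 was below both controls in 8 of 9 knockdown tumours (log2 fold change -0.79), and none of these 3 was called.

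Among the 9 knockdown tumours, none of 7 relations with the residual Ezh2 level passed the test. Of the 10 genes, 7 had at least 3 counts in at least 6 tumours and were compared with Ezh2 CPM. Mcpt1 had a Pearson r of -0.44 (exact permutation p = 0.24, Benjamini-Hochberg adjusted p = 0.28) and a Spearman rho of -0.25 (exact p = 0.52, adjusted p = 0.71), and r was -0.18 without tumours 3 and 9, which lie farthest from the median Ezh2. For Mcpt2, Cma1, Cpa3 and Tpsb2 r lay between -0.48 and -0.44 (adjusted exact permutation p of 0.28 for each), rho between -0.20 and -0.15, and r without the same tumours between -0.48 and -0.10. Hdc had the strongest rank relation, a rho of -0.62 (exact p = 0.086, adjusted p = 0.60) with an r of -0.44 (exact p = 0.23) and -0.37 without the same tumours. Gata2 had an r of 0.05 (exact p = 0.93), a rho of 0.35 (exact p = 0.36) and an r of 0.45 without those tumours.

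Likeness to Mcpt1 among the knockdown tumours is given as a description, in values that share library and depth and that for Mcpt4, Mcpt8 and Ms4a2 rest on under 3 counts in most of these tumours. With Mcpt1, on log2(CPM + 1) over the 9 knockdown tumours, Mcpt2 had a Pearson r of 0.97, Tpsb2 0.92, Cma1 0.90, Cpa3 0.85, Mcpt4 0.78, Ms4a2 0.77 and Mcpt8 0.53, while Gata2 had 0.40 and Hdc -0.10. Outside the set, the 5 of 13776 genes most like Mcpt1 over these 9 tumours were the chemokine gene Ccl7 (r of 0.96), the orphan receptor gene Gpr141 (0.95), Foxa1 (0.93), Tmem164 (0.92) and Tnfsf4, the gene of OX40 ligand (0.91). Over all 11 tumours, which fall into the 2 groups, Tnfsf4 was the nearest (0.98), with 0.0611 to 1.02 CPM in the knockdown tumours and 2.85 and 2.76 CPM in the controls. Fam108c, Actg1, Prkar2b and Zeb2 followed, with r of 0.96 to 0.97.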

How the data were processed

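RNA-seq counts per gene for 11 mouse tumours were taken as deposited by the authors, whole-number counts in a single table. Per the submitters' processing notes TopHat 1.4.0, HTSeq and mm9 were used, with no role given, and the use of strand is not given in the sources used here. TRIzol extraction of total RNA, TruSeq preparation and HiSeq2000 sequencing are given per the labels' protocols. Gene coordinates are those of the table (mm9), and sequences come from RefSeq (GRCm38.p6) and GENCODE M21.

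Counts were tested with edgeR 4.0.16 in R 4.3.3 (filterByExpr, TMM factors of 0.919 to 1.08, quasi-likelihood test of the 2 groups, Benjamini-Hochberg adjustment over all 16241 genes kept, which hold 99.9% of counts). The biological coefficient of variation was 33.9%. SE is the log2 fold change divided by the square root of F. Libraries held 11209233 to 18638382 counts, CPM use these totals times the TMM factors, and the floor is 3 counts. DESeq2 1.42.0 and limma 3.58.1 (voom), RLE factors, other filters, a test against 1.5-fold, a replicate block and leaving out each library were alternatives. The fit was tested on simulated data.

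The 10 genes and all lists were chosen with earlier results of these data known. Named from each list were the 2 genes with the smallest p in each direction among the calls (or the 2 lowest p where there was no call), plus Kit, Fcer1a, Tpsab1, Fcer1g, Mitf, Kitl, Il3, Il9, Tgfb1, Il33 and Ptprc. Likeness to Mcpt1 is Pearson r of log2(CPM + 1). Other genes named beside them, such as Il1rl1, Tph1, Gzmb, Prf1 and the markers of glia, were chosen after their values were seen.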

Additional observations from a re-analysis of the deposited data

Results flagged for a closer look

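Within the 9 knockdown tumours, 51 named values were examined for a single tumour far from the others, by Dixon's ratio of the gap to the nearest tumour over the whole range. For normally distributed values, chance passes its 95% limit in about 1 in 20 groups. The ratio was taken on CPM, which are skewed and for some genes under the floor of 3 counts, and values of the same tumour are not independent. The number passed can therefore not be set against that rate. The limit was passed for 14 genes, 8 of them in knockdown tumour 8. In tumour 8 these were Cma1 at 4.96 CPM, Tpsb2 at 6.84 CPM, Ms4a2 at 0.593 CPM and Fcer1a at 0.323 CPM among the mast cell genes, each with the next tumour at 2.27, 3.45, 0.165 and 0.0909 CPM in that order. Outside the mast cell genes they were Mmp9 at 101 CPM, Gzme at 48.5 CPM, Gzmf at 107 CPM and Snap25 at 47.3 CPM. The 51 values leave out genes that the naming rule did not pick. Gzmb, Gzmc, Gzmd, Gzmg, Prf1 and Tph1, each also highest in tumour 8 among the knockdown tumours, were therefore not examined.

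In tumour 6, Itga2 stood out at 44.5 CPM, Ptprc at 37.0 CPM and Cd4 at 4.91 CPM. In tumour 9, Kit was at 73.1 CPM and Slc32a1 at 3.72 CPM, and in tumour 3 Fcer1g was at 99.3 CPM. The mucosal chymases Mcpt1 and Mcpt2 had no such tumour, and neither had Mcpt4, Mcpt8 and Cpa3.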

How the results depend on the processing

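No value that passed its threshold changed sign under the alternatives run. The 2 controls limit every comparison: leaving out each library gave 903 to 2418 genes lower, 387 to 1957 higher, 2 to 10 other mast cell genes lower, 0 to 1 signals higher and a log2 fold change of Ezh2 of -1.76 to -1.48. The lowest counts came without control 1 (387 higher, 903 lower) and without control 2 (558 higher, 1192 lower, 2 mast cell genes). A test against 1.5-fold gave 709 lower, 450 higher, 4 other mast cell genes lower and an adjusted p of 0.091 for Ezh2 at -1.59. DESeq2 and the 7 libraries with Xist reads, an alternative chosen after seeing the data, each gave 2 signals higher. The log2 fold change of Mcpt1 stayed between -5.72 and -5.11 and that of Cma1 between -4.63 and -2.95 when each library was left out.

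Replicate numbers 1 and 2 occur in both groups, but the deviations of same-numbered tumours correlated at -0.15 and 0.01, so the numbers were not taken to pair them. With the replicate block there were 324 genes lower, 362 higher, 1 other mast cell gene lower (Srgn), 1 higher, and Ezh2 at -1.55 (adjusted p = 0.057).

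Among single named genes, 879 of the alternative values kept their call and direction or stayed within the spread, 71 lost a call, 9 gained one and 20 moved. Depth limits Ms4a2, Fcer1a, Cma2, Mcpt9, Mrgprb1 and Mrgprb2, and knockdown levels of Mcpt4 and Mcpt8 under 3 counts cannot be ordered.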

Other observations

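Cytotoxic and T cell genes were spread unevenly over the tumours. Of 10 listed genes 5 were tested, Cd4 and the natural killer receptor gene Klrb1c fell in the knockdown tumours (log2 fold change -2.72 ± 0.54 with adjusted p = 0.0049 and -3.67 ± 0.55 with adjusted p = 0.001) and the kinase gene Lck rose (1.71 ± 0.32, adjusted p = 0.0033). Without control 2 the Cd4 call was lost and its log2 fold change was -1.46. The summed level of the list was 5.44 to 32.5 CPM, highest in tumour 8, against 10.8 and 24.8 CPM in the controls. Cd3e and Cd8a had 3 counts or fewer in every library, and Cd3g had 17 counts in tumour 8.

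Of 9 tested genes of megakaryocytes and erythroid cells, which share GATA factors with mast cells, the erythropoietin receptor gene Epor rose by 1.59 ± 0.25 on the log2 scale (adjusted p = 0.0013) and the platelet chemokine gene Ppbp fell by 1.77 ± 0.55 (adjusted p = 0.036). The Ppbp call was lost with either control left out.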
